A study of Xenopus laevis with 10 samples.

Results

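The fed intestinal tube of Xenopus laevis tadpoles was followed from 10 to 16 days post fertilization (dpf) in the 5 libraries whose titles name fed animals, out of 10 RNA-seq libraries in all. They are 10 and 13 dpf of a first experiment and 10, 13 and 16 dpf of a second one, with 1 library at each age of each experiment. The other 5 libraries came from unfed tadpoles of the same ages and experiments. According to the labels, tadpoles were raised at 19 °C. By the same labels 20 to 26 intestinal tubes were collected per stage, so a library is a pool of animals. The labels name no strain, genotype or diet. By title, fed and unfed animals of the same experiment and age differ by feeding alone. The extraction text speaks of 10 and 16 dpf, whereas the titles also name 13 dpf. Ages were taken from the titles. The stage field differs from the title for the fed 13 dpf and the unfed 10 dpf library of experiment 1, so their ages are uncertain. By that field, both fed libraries of experiment 1 were of 10 dpf and both unfed ones of 13 dpf. Feeding and age could then not be told apart in experiment 1. The age of 16 dpf was sampled in experiment 2 only, as 1 fed library, and its difference from 13 dpf has no replicate check. Pools of separate animals were not described as biological replicates, so p-values measure the spread between these libraries.

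A Xenopus tadpole first lives on yolk and then begins to feed, and its gut becomes a long coiled tube with a simple larval epithelium, a thin wall of muscle and connective tissue, and few folds. Absorptive enterocytes carry digestive enzymes on a brush border, take up sugars, amino acids and lipids, and pack lipid into lipoproteins around apolipoproteins. This larval epithelium is later replaced during metamorphosis under thyroid hormone. X. laevis is allotetraploid, and many genes exist as a long-chromosome copy (.L) and a short-chromosome copy (.S), which were counted separately.

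The label of intestine was met by its markers in all 5 fed libraries. Of 37 genes found for the enterocyte brush border and terminal digestion, 34 passed the filter on low counts, 1 (tmprss15.L, enteropeptidase) had no count in any fed library, and together they held 1.45% to 2.22% of the gene counts. Villin (vil1.L, an actin bundler of microvilli) had 1264 and 1715 CPM (counts scaled to the library size) at 10 and 13 dpf in experiment 1 and 1675, 1359 and 1720 CPM at 10, 13 and 16 dpf in experiment 2. Genes listed for other organs had counts as well, and how much tissue of those organs was in the pools was not tested. Pancreatic digestive enzymes held 0.0166% to 0.217% of the gene counts, with 4 of 30 genes at 0. Stomach genes held 0.281% to 0.510%, led by atp4b, a subunit of the gastric proton pump, while pgc.S, a pepsinogen copy, was at 0. Liver genes held 0.105% to 0.206%, and none of the 33 liver genes found was at 0 in all fed libraries. The kidney list held 0.00699% to 0.0111%, and skeletal muscle 0.00633% to 0.0230%.

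Gene totals in the fed libraries were 7267376 to 9038724 counts after each gene was represented by its most highly counted transcript, and 26698 to 27309 genes had at least 1 count. Log2 CPM of fed libraries correlated at 0.927 to 0.973 across 22549 genes, which share annotation and transcript lengths. The first principal component of the 5 fed libraries took 50.2% of the variance, with both experiment 1 libraries on one side (−29.41 and −68.54) and the 3 experiment 2 libraries on the other (14.21, 46.83 and 36.91). Across genes, the change from 10 to 13 dpf in experiment 1 correlated at −0.28 with the same change in experiment 2. Age differences of the 2 experiments are therefore given side by side. In pooled tissue, fewer cells of a type and less RNA per cell cannot be told apart.

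The 20 most abundant genes of the fed tube included genes of lipid carriage, iron storage, fatty acid binding and protein synthesis, and the highest was ccdc50.L, a coiled-coil protein. The 20 highest genes were ranked by counts per kilobase of transcript, scaled to the gene total of a library like CPM. They held 15.5% ± 1.47 (SD, n = 5) of the per-length total in fed libraries. The same 20 genes held 14.5% ± 1.30 (SD, n = 5) in unfed libraries. These genes were chosen by their fed mean, which favours the fed share. Apolipoprotein A-I, the main protein of high-density lipoprotein, entered with both copies. On the per-length scale apoa1.S was at 17952 and 12949 at 10 and 13 dpf in experiment 1 and at 14885, 19345 and 15866 at 10, 13 and 16 dpf in experiment 2. The 13 dpf library of experiment 1 was the lowest and that of experiment 2 the highest. The other copy, apoa1.L, averaged 9250 ± 1574 (SD, n = 5). A transcript described as apolipoprotein E, the lipoprotein ligand of the low-density lipoprotein receptor, closed the 20 at 2948 ± 349.

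Intracellular lipid binding proteins formed the second group. Intestinal fatty acid binding protein (fabp2.L), which carries fatty acids inside enterocytes, was at 3927 and 4141 on the per-length scale in experiment 1 and at 3619, 6239 and 5279 in experiment 2, ages in ascending order. It was higher at 13 and 16 dpf than at 10 dpf in experiment 2 and nearly level in experiment 1. The liver-type protein fabp1.S, which binds fatty acids and other lipids, averaged 4514 ± 1122 (SD, n = 5) in fed and 760 ± 733 (SD, n = 5) in unfed libraries. The ileal bile acid carrier fabp6.S, whose deposited description names the .L copy, averaged 3312 ± 343, with the smallest SD of these binding proteins. The ferritin heavy chain fth1.1.S, the iron storage protein, reached 11566 ± 2703 and was lowest, at 7530, in the 13 dpf library of experiment 1.

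The value of ccdc50.L was 18767 ± 4423, from a single row of 545 bases. It stood at 24644 and 17644 in experiment 1 and at 18339, 20661 and 12547 in experiment 2, so the 16 dpf library was the lowest. The ribosomal protein rps12.L followed further down at 9685 ± 1847, a value that is uncertain because its row is only 141 bases long. Ribosomal protein genes took 4 of the 20 places (rps12.L, rpl10a.S, rpl36a.L and rps20.L) and 46 of the 100 highest. The elongation factor eef1a1.L averaged 3710 ± 705, and a nearly identical row of the same factor averaged 3580 ± 751, so their split is uncertain. Remaining places went to the adenine nucleotide carrier slc25a5.L (3716 ± 697), the haemoglobin chain hba3.L (4061 ± 1868), a regenerating islet-derived protein 4-like secretory lectin (MGC64513.L, 3159 ± 1126) and 3 uncharacterized LOC genes. All 20 were also the 20 highest by the authors' RPKM, which scales the same rows by length and is therefore no separate check. Of the 20, 16 were among the 20 highest in unfed libraries, and 7 of 20 remained when transcripts of a gene were summed.

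**Figure D1:**
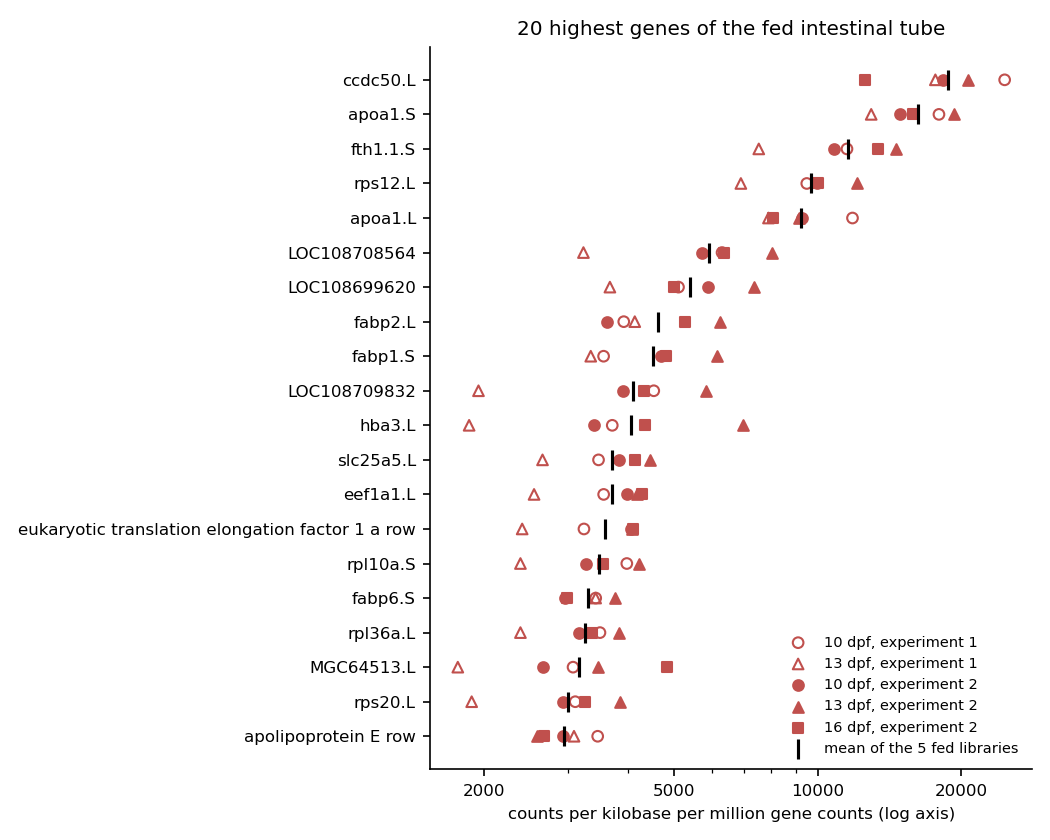
The 20 highest genes of the fed tube, in CPM per kilobase of transcript on a log axis, with open symbols for experiment 1, filled symbols for experiment 2 and a bar for the mean of the 5 fed libraries. The 13 dpf library of experiment 1 (open triangle) lies at the low end of most genes, as for apoa1.S at 12949 against a mean of 16199.

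The trend with age was fitted over the 5 fed libraries with the experiment as a block, and a slope is the log2 change per 3 days. One gene passed, MGC82602, a protein with no assigned role. It had 0.125 and 0.370 CPM at 10 and 13 dpf in experiment 1 and 0, 0 and 11 CPM at 10, 13 and 16 dpf in experiment 2. Its slope was 5.74 ± 0.69 (SE) with an adjusted p of 0.0350 (edgeR quasi-likelihood test), and it rests on the single 16 dpf library, since the other 4 were below 1 CPM. This was 0.00443% of the 22549 genes tested. At an unadjusted p below 0.05 there were 725 genes (3.22%), 422 with an upward slope (1.87%) and 303 with a downward slope (1.34%), and DESeq2 called 1 gene, sult6b1l.L, which was not the same one. The fit has 2 residual degrees of freedom among libraries. With the block, a fed trend fit without either library of experiment 1 takes its slope from experiment 2 alone, here and in the list slopes below. Results without the one and without the other are therefore not separate checks of single libraries. This does not apply to the fits over all 10 libraries, where fed and unfed libraries share the experiment effect. The count was 104 without the fed 10 dpf library of experiment 1, 82 without its 13 dpf library, 13 without the 16 dpf library, 0 without either of the 10 and 13 dpf libraries of experiment 2, and 0 without the experiment block.

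Within experiment 2 alone, 61 genes had a rising slope (0.281% of 21746) and 32 a falling one (0.147%) by the edgeR test. Experiment 1 has no 16 dpf library, so only its step from 10 to 13 dpf can be set beside these slopes, which run to 16 dpf. In that step 10 of the 61 (16.4%) were higher, where 54.8% of all genes were higher. Their median log2 change was −0.59. Of the 32, 7 (21.9%) were lower in experiment 1, against 45.2% of all genes, with a median of 0.63. Both medians have the sign opposite to the slope in experiment 2. The fit within experiment 2 had 1 library at each age. The stage field gives 10 dpf for the fed 13 dpf library of experiment 1, so the step in experiment 1 is uncertain as a change with age.

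The 13 against 10 dpf comparison used both experiments as replicates in a fit over all 10 libraries. No gene passed (0% of 23967, edgeR quasi-likelihood test), 195 were higher (0.814%) and 252 lower (1.05%) at an unadjusted p below 0.05, and DESeq2 called 2 (0.00834%), both higher at 13 dpf. Omitting the fed 13 dpf library of experiment 1 gave 4 calls, and omitting that of experiment 2 gave 3. In experiment 1, 622 genes (2.76%) were at least 2-fold higher and 660 (2.93%) at least 2-fold lower at 13 than at 10 dpf. In experiment 2 these numbers were 507 (2.25%) and 681 (3.02%). The direction was shared by both experiments for 8285 genes (36.7%).

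From 13 to 16 dpf in experiment 2, 892 genes (3.96%) were at least 2-fold higher and 769 (3.41%) at least 2-fold lower, with no replicate and no test. The same sign in all 3 steps (10 to 13 dpf in each experiment and 13 to 16 dpf) was seen upward for 1335 genes (5.92%) and downward for 1582 (7.02%). Of 36 lists of related genes, 24 had medians of opposite sign from 10 to 13 dpf in the 2 experiments, and 4 had the same sign in all 3 steps (sterol synthesis upward; extracellular matrix, skeletal muscle, and immediate early and heat shock genes downward). Another scaling by DESeq2 size factors turned the median of 5 lists in the experiment 1 step (pancreatic islet, lipid absorption, enteroendocrine, enteric neurons and glia, and endoplasmic reticulum chaperones), all of them within 0.04 of zero in size, and of none in the other steps. None of the 1184 list members tested passed the trend.

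**Figure D2:**
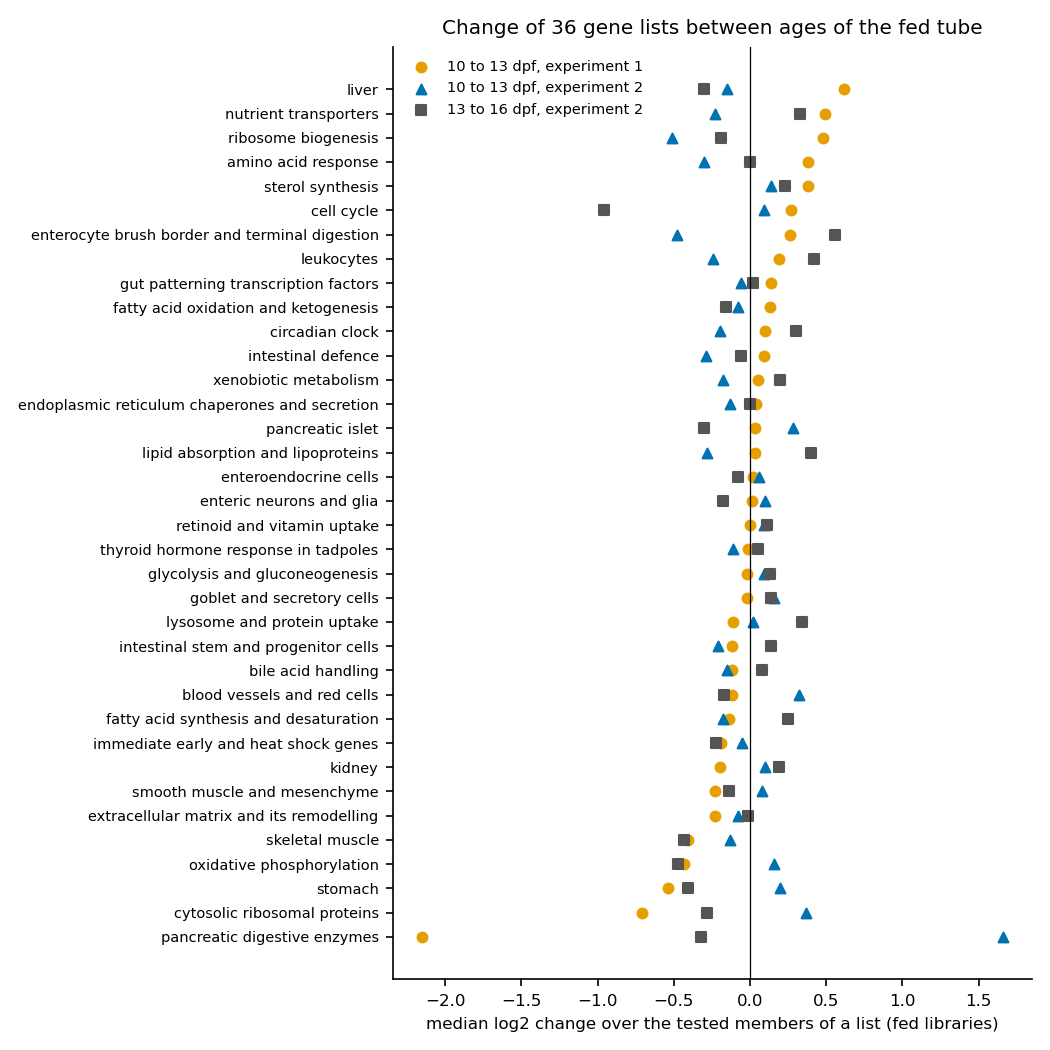
Median log2 change of the tested members of 36 gene lists in the fed libraries, from 10 to 13 dpf in experiment 1 (circles), from 10 to 13 dpf in experiment 2 (triangles) and from 13 to 16 dpf in experiment 2 (squares). Pancreatic digestive enzymes span the widest range, from −2.15 to 1.66, and cell cycle genes have the lowest square, at −0.96.

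Digestive enzymes of the pancreas, which are secreted into the gut lumen, differed most between libraries. Chymotrypsin C (ctrc.L) had 159 and 25.2 CPM at 10 and 13 dpf in experiment 1 and 138, 464 and 378 CPM at 10, 13 and 16 dpf in experiment 2. Carboxypeptidase A1 (cpa1.L), which trims peptides from the carboxyl end, had 78.6 and 15.8 CPM and then 90.1, 302 and 243 CPM. Both were lowest at 13 dpf in experiment 1 and highest at 13 dpf in experiment 2. The list had a median log2 change of −2.15 in experiment 1 (16 of 17 tested members lower) and of 1.66 in experiment 2 (17 of 17 higher), then −0.32 from 13 to 16 dpf. No member passed the trend, and the median slope was 0.09 against −0.00 for all genes. That median depended on the libraries fitted. It was −1.14 without the fed 10 dpf library of experiment 2, 0.18 without its 13 dpf library and −0.22 without the 16 dpf library. Without either library of experiment 1, which leaves the slope to experiment 2 alone, it was 0.65. The lowest and the highest library were the same for 2 other exocrine genes: pancreatic amylase (amy2b.S) had 48.9, 10.9, 59.6, 148 and 107 CPM, and carboxypeptidase B1 (cpb1.S) 122, 14.2, 105, 335 and 244 CPM. How much pancreas was left on each pool of tubes was not tested.

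Stomach genes moved less. The gastric proton pump subunit atp4b.S had 1580 and 1040 CPM at 10 and 13 dpf in experiment 1 and 1706, 2364 and 1856 CPM at 10, 13 and 16 dpf in experiment 2. Its partner atp4a.S, the catalytic subunit, had 505 and 378 CPM and then 1125, 1157 and 1166 CPM, so the experiments do not overlap. The stomach list had medians of −0.54, 0.20 and −0.41 over the 3 steps, and its secreted gastrokine gkn1.S had 46.4, 31.9, 33.8, 53.8 and 17.8 CPM in library order (experiment 1 at 10 and 13 dpf, then experiment 2 at 10, 13 and 16 dpf, here and below).

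Brush border genes were high at every age and had a zigzag course. Aminopeptidase N (anpep.L), which cleaves the ends of peptides, had 2401, 2883, 1940, 1063 and 2629 CPM. It was lowest at 13 dpf in experiment 2 and highest at 13 dpf in experiment 1. Intestinal alkaline phosphatase (alpi.2.L), a brush border enzyme, had 723, 618, 684, 832 and 1161 CPM, with the 16 dpf library above the other 4. Trehalase (treh.L), which splits the sugar trehalose, had 61.1, 88.0, 79.8, 56.8 and 118 CPM. Over the 34 tested members the median log2 change was 0.26 in experiment 1 (25 higher, 9 lower), −0.48 in experiment 2 (10 higher, 24 lower) and 0.56 from 13 to 16 dpf (29 higher, 5 lower). At 16 dpf 10 members were at least 2-fold above 13 dpf, where 3.96% of all genes were. The median slope was 0.15, and no member had an unadjusted p below 0.05 in the trend. The median was 0.44 without the fed 10 dpf library of experiment 2, −0.01 without the 16 dpf library and 0.10 without either library of experiment 1.

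Some brush border proteins kept an even level. The actin regulator eps8.L had 98.3, 95.8, 95.9, 96.0 and 105 CPM (mean 98.2 ± 3.88, SD, n = 5). Amnionless (amn.L), part of the receptor for vitamin B12 bound to its carrier, had 43.2, 45.0, 42.6, 38.1 and 47.5 CPM (mean 43.3 ± 3.46). Members with wide spread were plin2.S, a coat protein of lipid droplets, with 852, 330, 485, 292 and 1389 CPM, and lct.2.L, a lactase-like hydrolase whose description names another copy, with 366, 528, 466, 166 and 430 CPM.

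Nutrient transporters had medians of 0.49, −0.23 and 0.33 over the 3 steps and a median slope of 0.14, and 4 of 41 had an unadjusted p below 0.05 upward and 0 downward, where 1.87% of all genes had so upward. That median slope was 0.47 without the fed 10 dpf library of experiment 2 and 0.04 without the 16 dpf library. The fatty acid transporter cd36 supplied 2 of the 4. Its .L copy had 116, 192, 149, 203 and 268 CPM, higher at each later age within both experiments, with a slope of 0.50 ± 0.17 (SE). The .S copy had 5.24, 7.03, 5.69, 11 and 37.8 CPM, all fed values below the unfed ones (45.5 to 99.7 CPM). The other 2 were slc27a4.S, a fatty acid transport protein (31.6, 45.3, 19.4, 14.2 and 39.8 CPM), and slc6a20.L, a proline transporter (2.62, 2.59, 3.03, 3.06 and 8.74 CPM).

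Carriers of sugar, amino acids and phosphate were among the higher transporters. The sodium-glucose cotransporter slc5a1.2.L had 468, 653, 544, 488 and 792 CPM, and the glucose exit carriers slc2a2.L and slc2a2.S had fed means of 68.1 ± 29.0 and 57.6 ± 17.4 CPM (SD, n = 5). The neutral amino acid transporter slc6a19.L had 1759, 2028, 1139, 1166 and 1406 CPM. Experiment 1 lay above experiment 2 for it. The phosphate carrier slc34a2.L had 664, 1067, 757, 306 and 638 CPM, against 40.4 to 94.4 CPM in unfed libraries. Iron export through ferroportin (slc40a1.L) was represented by 341, 344, 222, 231 and 288 CPM.

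Lipid absorption and lipoprotein genes held 4.41% to 5.48% of the fed gene counts, the largest share among the absorptive lists. Their medians were 0.03, −0.28 and 0.40 over the 3 steps (the first turned sign under DESeq2 size factors), with a median slope of 0.07. Microsomal triglyceride transfer protein (mttp.1.L), which loads lipid onto apolipoprotein B, had 379, 467, 363, 242 and 359 CPM, and apob.S itself 1856, 1979, 1924, 1252 and 1796 CPM. Both were lowest at 13 dpf in experiment 2. The monoacylglycerol acyltransferase mogat2.2.L, which rebuilds triglyceride in the enterocyte, had 65.9, 97.8, 97.8, 72.1 and 122 CPM. Scavenger receptor scarb1.L, a lipoprotein and cholesterol receptor, separated the experiments with 490 and 747 CPM in the first and 93.9, 61.4 and 122 CPM in the second. The cellular retinol carrier rbp2.L had 2339, 1716, 2309, 2793 and 2150 CPM, and its list of retinoid and vitamin uptake had a median slope of 0.11. Without the 16 dpf library the median slopes of the lipid and the retinoid list were −0.05 and −0.01. No member of these lists had an unadjusted p below 0.05 in the trend.

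Sterol synthesis genes held a larger share of counts at each later age within both experiments. They encode the enzymes from acetyl-CoA to cholesterol with their regulators, and their share was 0.288% and 0.381% at 10 and 13 dpf in experiment 1 and 0.469%, 0.497% and 0.641% at 10, 13 and 16 dpf in experiment 2. In unfed libraries the share was 0.0659% to 0.0845%. HMG-CoA synthase (hmgcs1.L), an early enzyme of the pathway, had 203 and 279 CPM in experiment 1 and 436, 565 and 823 CPM in experiment 2. The second copy, hmgcs1.S, had 160, 285, 383, 498 and 573 CPM. In both copies each later age was above the earlier one within an experiment, and every experiment 2 value was above those of experiment 1. In unfed libraries hmgcs1.L stayed between 11.6 and 17.2 CPM. Its fed slope was 0.48 ± 0.20 (SE) and did not pass (adjusted p = 1.0, edgeR).

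Later enzymes were lowest at 10 dpf in experiment 1 and highest at 16 dpf, and sqle.S and msmo1.L were lower at 13 than at 10 dpf in experiment 2. Squalene epoxidase (sqle.S), which adds oxygen to squalene, had 43.1, 70.5, 76.3, 70.8 and 132 CPM, lanosterol synthase (lss.S) 26.1, 52.7, 69.9, 75.9 and 96.7 CPM, and the methyl sterol oxidase msmo1.L 192, 299, 541, 519 and 603 CPM. The low-density lipoprotein receptor ldlr.L had 12.6, 16.4, 12.3, 18.2 and 24.4 CPM. Of the 38 tested members, 34 were higher at 13 than at 10 dpf in experiment 1, 23 in experiment 2, and 26 at 16 against 13 dpf. A total of 11 had an upward sign in all 3 steps, where 5.92% of all genes had, and 0 a downward one. At an unadjusted p below 0.05 there were 6 upward (1.87% of all genes) and 0 downward, and none passed adjustment.

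Fatty acid synthesis and desaturation genes did not share this course, with medians of −0.14, −0.18 and 0.25. Stearoyl-CoA desaturase (scd.L), which makes monounsaturated fatty acids, had 2872, 1022, 1390, 922 and 2947 CPM, so it was lower at 13 dpf than at 10 dpf in both experiments and high again at 16 dpf. The delta-6 desaturase fads2.S, an enzyme of long polyunsaturated fatty acids, had 38.2, 14.2, 68.8, 191 and 249 CPM, lower at 13 dpf in experiment 1 and higher in experiment 2. The elongase elovl2.L had 69, 23.1, 48.7, 123 and 167 CPM. Cholesterol 7-alpha-hydroxylase (cyp7a1.L), the rate-limiting enzyme of bile acid synthesis and known as a liver gene, had 31.3, 540, 22.5, 98.4 and 4.22 CPM. Its highest and lowest values were 13 dpf of experiment 1 and 16 dpf. Liver genes had a median log2 change of 0.62 from 10 to 13 dpf in experiment 1 and −0.15 in experiment 2, and their share was 0.206% in the 13 dpf library of experiment 1 and 0.112% at 16 dpf. The part of liver tissue in the cyp7a1.L values was not tested.

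**Figure D3:**
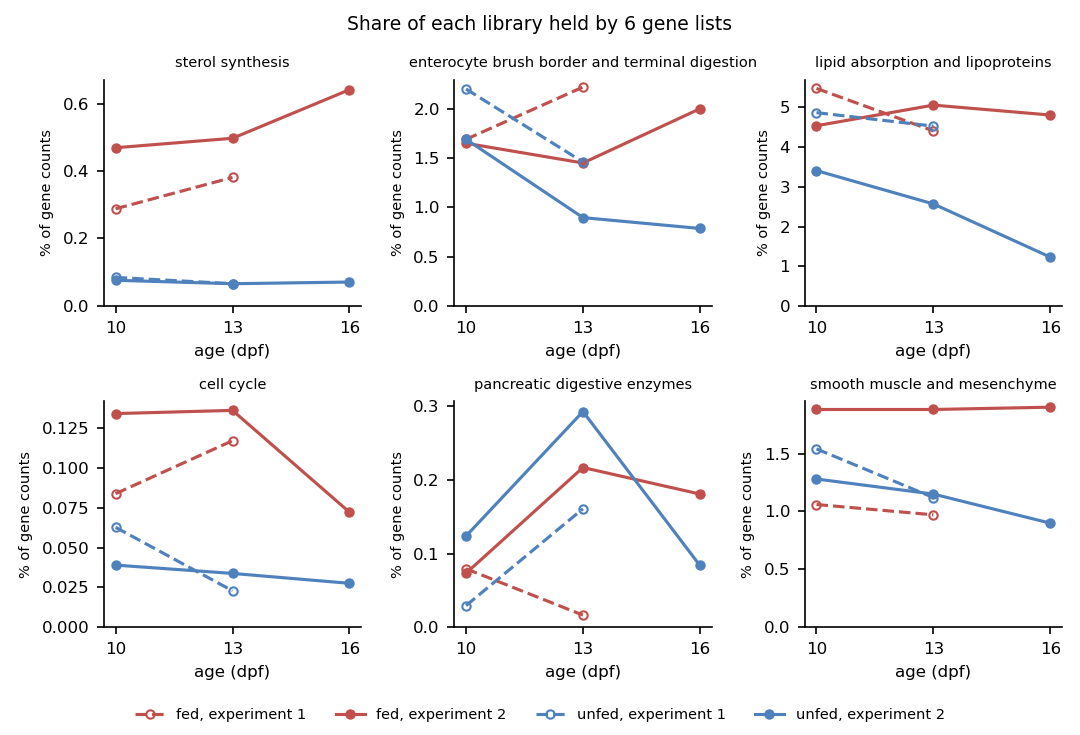
Share of each library's gene counts held by 6 gene lists, in percent, against age in dpf, for fed (red) and unfed (blue) libraries of experiment 1 (dashed) and experiment 2 (solid). In fed libraries the sterol synthesis share goes from 0.288% to 0.381% and from 0.469% to 0.641%, and the cell cycle share drops from 0.136% at 13 dpf to 0.0722% at 16 dpf in experiment 2.

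Cell cycle genes were lower at 16 than at 13 dpf. In that step 55 of 57 tested members were lower, with a median log2 change of −0.96, and 28 of 57 were at least 2-fold lower, where 3.41% of all genes were. The DNA polymerase clamp pcna.L had 70.5, 72, 124, 142 and 69 CPM. The replicative helicase subunit mcm5.S had 19.7, 32.3, 54.4, 51.5 and 19.1 CPM, and mcm7.S had 24.1, 31.9, 28.6, 32.6 and 8.89 CPM. At 16 dpf these genes were at or below their level in experiment 1 at 10 dpf. From 10 to 13 dpf the medians were 0.27 and 0.09 in the 2 experiments. The mitotic kinase cdk1.L had 22.7, 18.1, 25.5, 50.2 and 22.4 CPM, and thymidylate synthase (tyms.L), which makes thymidine nucleotides, had 12.4, 13.9, 28.0, 22.8 and 9.49 CPM. An unadjusted p below 0.05 downward was found for 2 of 57 members, mki67.S and tyms.L (1.34% of all genes), and none passed. Because the drop rests on 1 library, it has no replicate check, and the median slope of −0.24 was 0.24 without that library. The list's share at 16 dpf, 0.0722%, was still above the unfed range of 0.0229% to 0.0627%.

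Genes of intestinal stem and progenitor cells had a median slope of 0.00 (−0.09 without the 16 dpf library) and medians of −0.12, −0.21 and 0.14. Olfactomedin 4 (olfm4.L), a stem cell marker of the mammalian intestine, had 154, 116, 179, 45.7 and 97.3 CPM. Both ascl2 copies, a transcription factor of mammalian intestinal stem cells, were at 0 in the fed libraries. The thyroid hormone response list, known from metamorphosis, had a median slope of 0.02. Its member thrsp.S, a lipogenic protein, had 2.62, 1.85, 2.54, 4.26 and 10.4 CPM, and the hormone receptor copies thra.L and thra.S stayed below 2 CPM.

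Cytosolic ribosomal protein and respiration genes had medians of the same sign in each step, and ribosome biogenesis genes had the opposite sign from 10 to 13 dpf. Cytosolic ribosomal proteins had medians of −0.71 in experiment 1 (129 of 130 lower), 0.37 in experiment 2 (128 of 130 higher) and −0.28 from 13 to 16 dpf (126 of 130 lower). They held 11.8%, 7.96%, 11.3%, 13.9% and 12.1% of gene counts. Oxidative phosphorylation genes had medians of −0.43, 0.16 and −0.47 (115 of 126 lower, 96 higher, 118 lower). All 3 steps were downward for 20 of them and upward for 1, against 7.02% and 5.92% of all genes. At an unadjusted trend p below 0.05 (edgeR), 6 were downward and 1 upward, against 1.34% and 1.87% of all genes. None passed adjustment. Their median slope of −0.20 was −0.11 when a trend with transcript length was removed and −0.13 without the 16 dpf library. Ribosome biogenesis had medians of 0.48 in experiment 1 (36 of 38 higher), −0.51 in experiment 2 (38 of 38 lower) and −0.19 from 13 to 16 dpf (32 of 38 lower). Nucleolin (ncl.S), a nucleolar protein, had 360, 543, 656, 421 and 410 CPM. The ribosomal protein transcripts are short, and their median slope of −0.10 became −0.00 when a trend with transcript length was removed and 0.08 without either library of experiment 1.

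Smooth muscle genes of the wall held a larger share of counts in the experiment 2 libraries than in those of experiment 1. Smooth muscle actin (acta2.S) had 1501 and 923 CPM in experiment 1 and 3950, 4321 and 4136 CPM in experiment 2, and the smooth muscle and mesenchyme list held 1.06%, 0.971%, 1.88%, 1.88% and 1.90% of gene counts. Its median slope within the block was −0.03. Extracellular matrix genes had medians of −0.23, −0.08 and −0.01, of which the last turned positive when libraries were scaled by totals alone. The matrix glycoprotein sparc.S had 380, 329, 388, 372 and 481 CPM. The lysosome list had 4 of 33 members at an unadjusted p below 0.05 upward and 0 downward in the trend, where 1.87% of all genes had so upward, with a median slope of 0.16 (−0.00 without the 16 dpf library) and medians of −0.11, 0.02 and 0.34. Its abundant protease legumain (lgmn.L) had 440, 351, 289, 360 and 379 CPM. Enteric neurons and glia had a median slope of −0.04, enteroendocrine cells −0.06 and goblet and secretory cells 0.02, and these were −0.03, 0.01 and −0.18 without the 16 dpf library. The gut hormone gip.S had 115, 84.3, 104, 106 and 83.3 CPM, and the goblet cell peptide tff3.2.S 428, 281, 476, 531 and 584 CPM.

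The 10 genes named by rule for the trend were all short of the adjusted threshold in edgeR. The rule asked for named genes of at least 5 CPM with the same sign in all 3 steps, and since fewer than 5 passed, the 5 of smallest p were taken each way. Upward, cd36.S (values above) had a slope of 1.25 ± 0.21 (SE, edgeR adjusted p = 0.461). The calpain protease capn5.S had 9.61, 14.7, 6.90, 11.6 and 22.1 CPM with a slope of 0.81 ± 0.17. The organic anion transporter slco4c1.L had 14.6, 39.2, 12.3, 13.8 and 27.1 CPM, the channel-like membrane protein tmem37.S 33.9, 40.3, 25.9, 39.5 and 73.4 CPM, and ptgr1.3.L, a prostaglandin reductase-like enzyme, 4.49, 4.93, 3.63, 5.46 and 32.1 CPM. For ptgr1.3.L the 4 libraries before 16 dpf lay within 3.63 to 5.46 CPM, and the slope was 1.42 ± 0.31. The second copies capn5.L and tmem37.L had slopes of 0.03 and 0.27.

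Downward, sult6b1l.L, a sulfotransferase-like gene, had 1093, 821, 584, 256 and 135 CPM. It was the most abundant of the 10. Its lower value at each later age within an experiment was a condition of the rule. All values of experiment 2 lay below those of experiment 1, also at the ages that both experiments share by title. The 16 dpf value exists in experiment 2 only. Its slope was −0.91 ± 0.21 (SE); edgeR gave an adjusted p of 1.0 and DESeq2 one of 0.0475, and the .S copy had a slope of −0.17. The pigment-organelle protein mreg.L (the description names the .S copy) had 59.5, 36, 23.6, 16.8 and 6.03 CPM, with a slope of −0.88 ± 0.18. The EGF receptor inhibitor errfi1.L had 31.2, 13.1, 13.3, 9.45 and 4.07 CPM, and the actin-associated protein enc1.2.L 35.4, 27.1, 23.2, 13.6 and 7.68 CPM. For mreg.L, errfi1.L and enc1.2.L the slopes of the other copy were −0.13, −0.17 and −0.30. The immediate early transcription factor egr1 had a like slope in both copies, −1.15 ± 0.30 for egr1.L (13.0, 2.71, 6.54, 5.06 and 1.96 CPM) and −1.16 ± 0.38 for egr1.S.

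**Figure D4:**
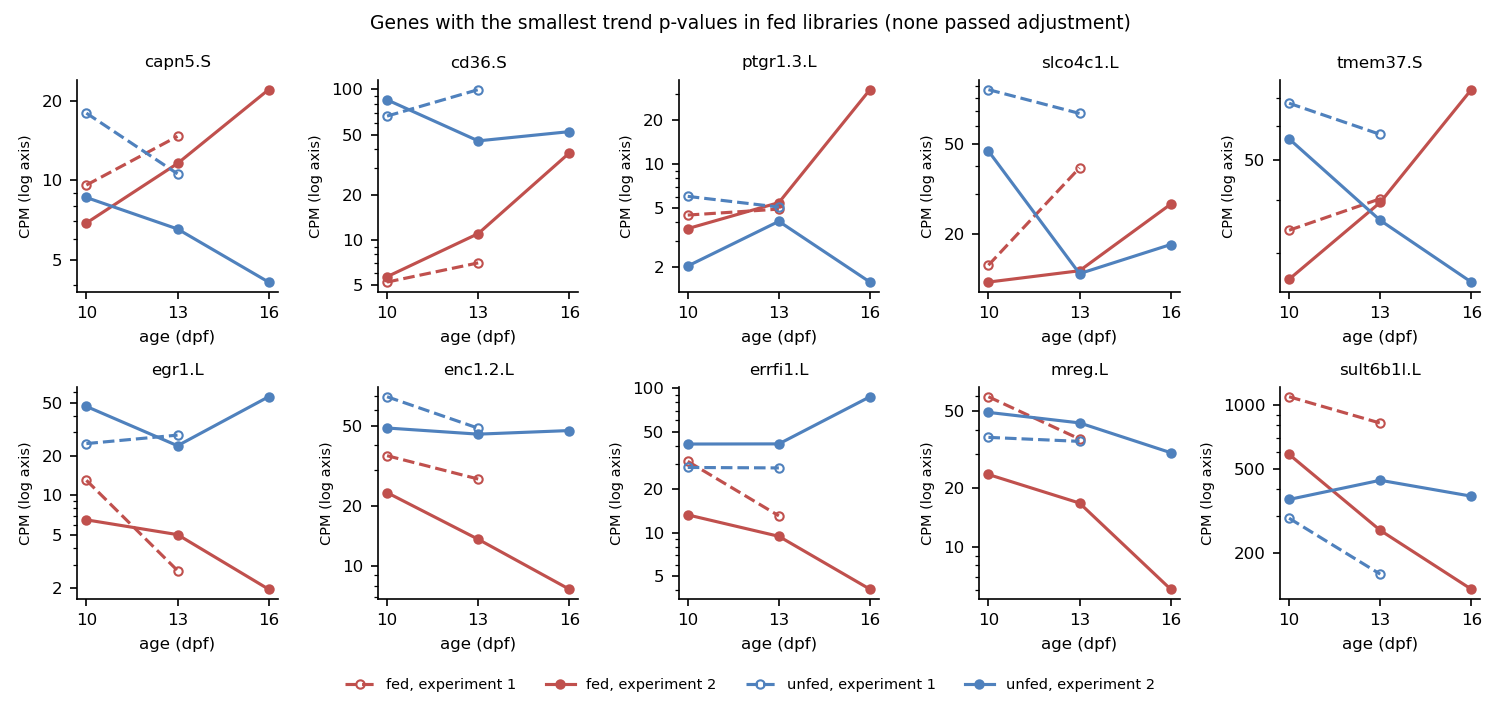
CPM on a log axis against age in dpf for the 5 upward and 5 downward genes with the smallest trend p-values, fed (red) and unfed (blue), experiment 1 dashed and experiment 2 solid. Fed sult6b1l.L lies at 1093 and 821 CPM in experiment 1 and at 584, 256 and 135 CPM in experiment 2, while ptgr1.3.L stands apart at 16 dpf only, at 32.1 CPM.

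Whether the course with age belonged to fed tubes was asked by testing the fed slope minus the unfed slope over all 10 libraries. Fed and unfed libraries shared 1 experiment effect, and 16 dpf was sampled in experiment 2 only. A difference between experiments in fed tubes alone can therefore enter the slope difference. At 10 dpf the sterol synthesis share was 0.288% and 0.469% in fed libraries of experiments 1 and 2. In unfed ones it was 0.0845% and 0.0761%. How much such differences add was not tested. In 20 of 23967 genes the slopes differed (0.0834%, edgeR adjusted p below 0.05), 19 with the higher slope in fed libraries (0.0793%) and 1 with the lower (0.00417%). All 19 were lower at the later age in all 3 steps of the unfed libraries, and 13 of 19 were higher at the later age in all 3 steps of the fed ones. At 16 dpf the fed level was above the unfed level in all 19. The 19 were picked from these same libraries for a higher fed slope, so these directions partly restate that choice and are no separate support. At an unadjusted p below 0.05, 1455 genes were higher (6.07%) and 1162 lower (4.85%). DESeq2 called 336 of 17461 (1.92%), 264 higher (1.51%) and 72 lower (0.412%), with all 20 among them. Single libraries moved the count: it was 271 without the fed 13 dpf library of experiment 1, 53 without the fed 10 dpf and 4 without the fed 13 dpf library of experiment 2, 1 without the fed 10 dpf library of experiment 1 and 0 without the fed 16 dpf library. Omitting an unfed library gave 2 (10 dpf) and 54 (13 dpf) in experiment 1 and 5, 3 and 3 (10, 13 and 16 dpf) in experiment 2. Without the experiment block, 2 passed.

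The largest difference was that of a transcript described as Niemann-Pick C1-like protein 1, the cholesterol uptake protein of the brush border in mammals. In fed libraries it had 75.1, 129, 103, 74.9 and 187 CPM, and in unfed libraries 36.4, 3.29, 16.8, 1.81 and 0.491 CPM. The fed values stayed high and the unfed values were lower at each later age. The slopes differed by 3.66 ± 0.38 (SE, edgeR adjusted p = 0.0181). An annotated gene of that name, npc1l1.L, had 1.75, 10.7, 7.99, 12.2 and 9.49 CPM in fed tubes against 0.589 to 3.44 CPM in unfed tubes, and its difference of 1.63 ± 0.68 did not pass. A glycosyltransferase-like gene (LOC108709869), which by its description adds galactose to glycoproteins, had 8.11, 12.6, 11.4, 14.6 and 26.2 CPM in fed tubes, and 12.4, 7.64, 17.1, 4.97 and 2.16 CPM in unfed libraries, a difference of 2.02 ± 0.24 (edgeR adjusted p = 0.0181).

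Among the 6 named genes of at least 5 CPM with the largest upward differences, the fatty acid transporter cd36.L (fed values above) had 181, 125, 155, 77.3 and 48.9 CPM in unfed libraries, a slope difference of 1.39 ± 0.21 (edgeR adjusted p = 0.0484). The microvillus actin bundler plastin 1 (pls1.S) had 264, 312, 243, 275 and 401 CPM in fed tubes against 314, 177, 203, 106 and 68.4 CPM in unfed tubes, a difference of 1.26 ± 0.20. At 10 dpf the fed and unfed values of pls1.S were near each other, and at 16 dpf they were far apart. The copy pls1.L had 0.92 ± 0.20 and did not pass (edgeR adjusted p = 0.0929). The calpain capn5.S had 18.0, 10.6, 8.62, 6.55 and 4.12 CPM in unfed libraries, with a difference of 1.52 ± 0.20.

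The nucleoside diphosphatase entpd5.L was among the called genes whose fed values were not higher at each later age. It had 227, 230, 153, 110 and 130 CPM in fed tubes against 71.1, 39.5, 44.6, 15.1 and 5.20 CPM in unfed tubes, so the fed values did not increase through experiment 2 and the unfed values had the steeper downward course (difference 1.36 ± 0.21). The acyl-CoA thioesterase acot12.L, which cleaves acetyl-CoA, had 22.1, 38.0, 22.8, 24.8 and 37.1 CPM in fed tubes against 25.7, 16.7, 26.8, 7.80 and 7.36 CPM in unfed tubes (difference 1.35 ± 0.23). The membrane protein unc93a.2.L had a difference of 1.56 ± 0.25 with 12.7 against 1.57 CPM at 16 dpf. The others called upward, named here after their values were seen, were tmem37.S, slc39a5.L (a zinc transporter), pdzd3.L (a scaffold protein of brush border transporters), naaa.L (a lysosomal amidase), tha1p.L, a thioredoxin reductase 1-like transcript, a histidine N-acetyltransferase-like gene, 2 TRIM25-like ubiquitin ligase genes and 2 transcripts described by their SAM domains. The single downward one was an angiotensinogen-like transcript, a hormone precursor typical of liver, with 44.2, 39.3, 36.1, 20.1 and 17.0 CPM in fed tubes against 35.0, 42.8, 24.8, 51.2 and 71.3 CPM in unfed tubes (−1.23 ± 0.20, edgeR adjusted p = 0.0484). Liver genes held 0.578% and 0.605% of unfed gene counts at 13 and 16 dpf in experiment 2, against 0.105% and 0.112% of the fed ones, and their part in this value was not tested.

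**Figure D5:**
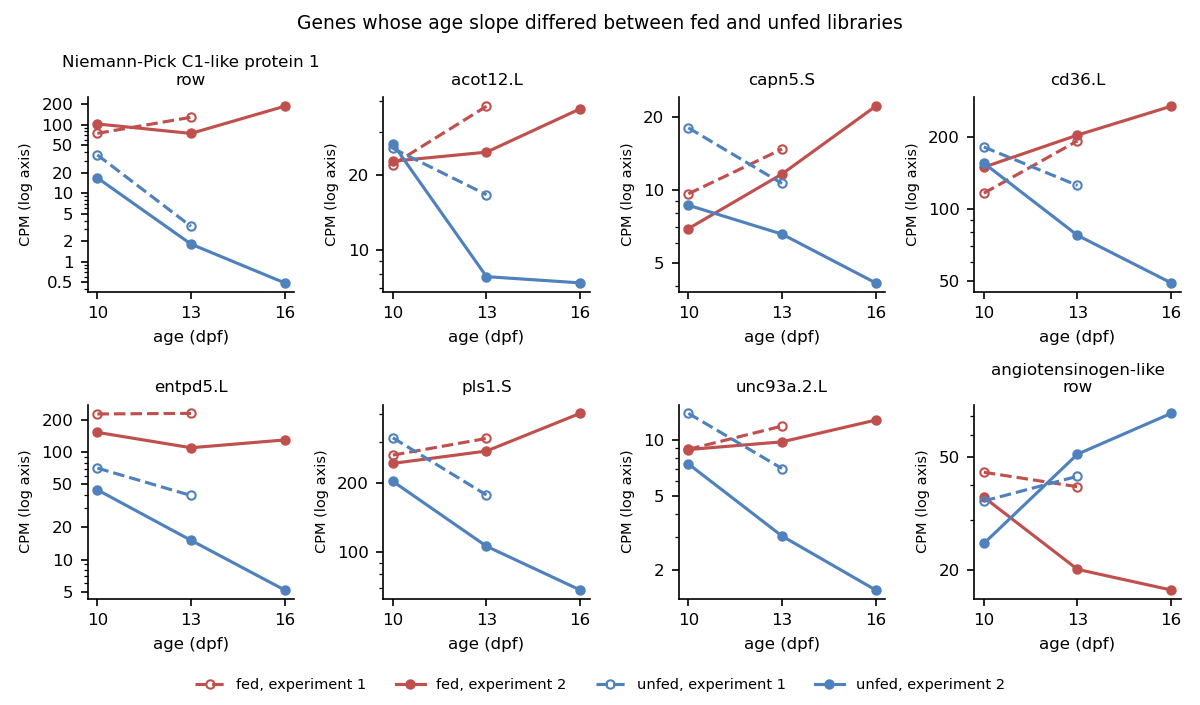
CPM on a log axis against age in dpf for genes whose slope with age differed between fed (red) and unfed (blue) libraries, experiment 1 dashed and experiment 2 solid. At 16 dpf cd36.L lies at 268 CPM in fed tubes against 48.9 CPM in unfed tubes, and the angiotensinogen-like transcript at 17.0 CPM against 71.3 CPM.

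Absorptive lists had larger slope differences than all genes, although 1 of their members passed. For the brush border the median difference was 0.76 against −0.02 for all genes, and 19 of 36 tested members had an unadjusted p below 0.05 upward and 1 downward, where 6.07% and 4.85% of all genes had. DESeq2 called 9 of 31 members upward (1.51% of all genes). The brush border held 1.69%, 2.22%, 1.65%, 1.45% and 2.0% of fed gene counts in library order, and 2.20%, 1.46%, 1.69%, 0.896% and 0.786% of unfed ones. Lipid absorption had a median of 0.62, with 19 of 34 at an unadjusted p below 0.05 upward and 7 called by DESeq2. Nutrient transporters had 0.24, with 13 of 41 and 4, and retinoid and vitamin uptake 0.28, with 7 of 25 and 4. Of the members of these lists, cd36.L passed the edgeR threshold.

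Among members, the intestinal fatty acid binding protein fabp2.L had 2525, 2418, 2436, 4436 and 3554 CPM in fed tubes against 2500, 1576, 1776, 908 and 277 CPM in unfed tubes. Its difference of 1.66 ± 0.36 did not pass in edgeR (adjusted p = 0.103) and did in DESeq2 (adjusted p = 1.12e-04). The glucose carrier slc5a1.2.L, with 862, 430, 520, 193 and 168 CPM in unfed libraries, had 1.32 ± 0.26 (adjusted p = 0.0809 in edgeR and 2.80e-04 in DESeq2). In experiment 2, fed and unfed values of both genes were nearer to each other at 10 dpf than at 16 dpf. Sterol synthesis had a median of 0.58, with 15 of 38 at an unadjusted p below 0.05 upward and 1 downward, and extracellular matrix 0.23, with 20 of 52 upward and 3 downward. Cell cycle genes had 0.50, with 5 of 57 upward, where 6.07% of all genes were. Lower medians were found for intestinal defence (−1.08, 5 of 21 downward), immediate early and heat shock genes (−0.53, 5 of 22) and ribosome biogenesis (−0.43, 15 of 38). At the same unadjusted threshold 4.85% of all genes were downward. The defence list is of low counts, with 0.00540% to 0.00909% of fed and 0.0154% to 0.101% of unfed gene counts. In the defence list, noxo1.1.L, an oxidase organizer, had 10.2, 19.6, 26.8, 3.06 and 6.93 CPM in fed tubes against 4.97, 6.26, 27.7, 67.3 and 145 CPM in unfed tubes, a difference of −2.15 ± 1.13 that did not pass.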

How the data were processed

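Intestinal RNA of 10 pools was sequenced. The authors deposited, per the file headers, 1 table per experiment with read counts, RPKM and the length of each transcript row; the submitters' processing notes name HISAT2 and featureCounts, with version and build not given in the sources used here. Of 63876 rows, 61159 carried an accession, matched to names with the RefSeq table of Xenopus_laevis_v10.1 (93% of gene counts). Each gene was represented by its most counted transcript, because variants shared reads (83.7% of 9769 genes had their top 2 variants within 10%). Blank rows (0.0738% of counts) and named rows without accession (0.136%) were left out. CPM used TMM factors, and log2 CPM a prior count of 2. Deposited RPKM served only to compare ranks and the share of the highest genes. Tests were edgeR 4.0.16 quasi-likelihood fits with limma 3.58.1 in R 4.3.3 on the deposited counts after filterByExpr, Benjamini-Hochberg adjusted over all genes at 0.05. DESeq2 1.42.0 was an alternative. The fits were also run on counts simulated from the kind of model they assume, with the same slope in both experiments. That run cannot show how they act where the experiments change in opposite directions. Deposited counts summed over all rows were 12664503 to 17967762 per library, a sum that can hold reads shared by variants more than once. Gene totals were 7013504 to 9954054. Titles give the experiment, which is the block. Same-experiment deviations at 10 and 13 dpf correlated at 0.35 across genes.

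Members, 36 gene lists and tests were chosen with earlier results of these data known. Genes were named by rule: trend genes as stated with their results (LOC, MGC and XB identifiers excluded), the 20 highest per length, the 2 highest members of each list, up to 6 slope-difference genes per direction, and the other copy of such genes. Other members of the lists described were named after their values were seen. Some genes of the lists are not reported here. No sequences are shown.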

Additional observations from a re-analysis of the deposited data

Results flagged for a closer look

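The kidney list held 0.0111% of gene counts in the fed 16 dpf library and 0.00771%, 0.00813%, 0.00761% and 0.00699% in the other fed libraries, a gap that set the first apart from its group. The list has 3 tested genes, and the sodium-potassium-chloride cotransporter slc12a1.L leads it with 59.4, 51.8, 58.0 and 62.3 CPM in the earlier fed libraries and 102 CPM at 16 dpf. It was the 1 mark among 56 groups checked, where chance marks about 1 in 20.

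The slope with age differed between fed and unfed libraries in 20 genes (edgeR quasi-likelihood test of the difference). Named genes among them were unc93a.2.L at 1.56, capn5.S at 1.52, cd36.L at 1.39, entpd5.L at 1.36, acot12.L at 1.35 and pls1.S at 1.26, as slope in fed minus slope in unfed libraries in log2 per 3 days. For cd36.L the fed values rank 16 dpf highest in experiment 2 and the unfed values rank it lowest, and for entpd5.L both states were lower at 16 than at 10 dpf.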

How the results depend on the processing

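The number of genes in the fed trend (main value 1) was 0 with all 10 libraries in 1 fit, 0 after removing a trend with transcript length, 0 with a filter at a mean of 5 CPM, 0 with transcripts summed, 12 with no filter, 6 with ages from the stage field and 93 in experiment 2 alone, and 0 to 104 when leaving out 1 library. For 13 against 10 dpf (main value 0) it was 2 by DESeq2, 13 with the 4 fed libraries alone, 2 with ages from the stage field and 0 to 4 when leaving out 1 library. The slope difference (main value 20) gave 336 by DESeq2, 11 after removing the length trend (10 of the 20 shared), 77 with no filter (20 shared), 3 with a filter at 5 CPM, 3 with transcripts summed, 8 with ages from the stage field (3 shared) and 0 to 271 when leaving out 1 library. Members of the 36 lists past the trend (main value 0) numbered 8 in experiment 2 alone, 1 with no filter, 1 with ages from the stage field and 0 to 10 when leaving out 1 library.

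Without the replicate block of the experiment, the trend had 0 genes and the slope difference 2; the 13 against 10 dpf comparison kept its count of 0. The 2-fold counts between 16 and 13 dpf (1661 in all) were 1668 with DESeq2 size factors, 1156 with a prior count of 5 and 1771 with transcripts summed, alternatives chosen after seeing the data. The share of the 20 highest genes was 15.5% by RPKM, 15.3% with transcripts summed and 15.1% to 16.0% when leaving out 1 library. RPKM uses the same rows and lengths and is no separate check. With transcripts summed, 7 of the 20 highest genes were the same as in the main ranking. DESeq2 size factors shifted the median of all genes by −0.04, 0.03 and −0.00 over the 3 steps, and library totals by 0.14, −0.08 and 0.08; the latter turned the median of 7, 2 and 2 lists. The median slope of a list changed sign without 1 library in several lists: cell cycle (−0.24) was 0.24 without the fed 16 dpf library, and without the fed 10 dpf library of experiment 2 the pancreatic enzymes (0.09) had −1.14, liver (−0.08) 0.23 and ribosome biogenesis (−0.18) 0.09. The 1 gene that DESeq2 called in the trend was a different one, with a downward slope.

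The trend has 2 residual degrees of freedom and 1 library at 16 dpf, and 10 to 13 dpf changes correlated negatively between the 2 experiments. Stage labels of 2 libraries disagree. Reads shared between transcript variants and between .L and .S copies can move counts from one row to another.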
